A study of Mus musculus with 12 samples.

Results

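RNA levels were examined here for 10 genes that drive or restrain the commitment of an activated B cell to divide: the transcription factor gene Myc, the cyclin genes Ccnd2, Ccnd3, Ccne1 and Ccne2, the kinase genes Cdk4 and Cdk6, and the CDK inhibitor genes Cdkn1a, Cdkn1b and Cdkn2c. Each was found by its symbol and Ensembl identifier in the table of raw counts, and the 10 are part of 55536 annotated features, of which 15794 had enough counts to be tested over all libraries. All 10 were among those tested. RNA-seq had been performed on B lymphocytes from the spleens of C57BL/6 mice, depleted of CD43-positive cells and cultured for 48 h either with LPS and IL-4, which leads to switching to IgG1 (LPS-IL-4), or with LPS, BAFF and TGFβ, which leads to switching to IgG2b (LPS-BAFF-TGFβ). Control mice carried 1 Cre allele that is active in B lineage cells, and Pdap1-deficient mice carried the same Cre allele together with 2 conditional Pdap1 alleles (Pdap1 F/F). Cre is thus expressed in the B cells of both genotypes, the loxP sites of the conditional allele flank exon 2 of Pdap1, and the study used mice over a range of ages, matched between genotypes, without naming the ages of these 6. The sample labels also name CH12, a mouse B lymphoma line, whereas their titles and the study's methods describe primary B lymphocytes. The 3 mice of each genotype each gave 1 culture of either kind, which makes 12 libraries in 4 groups of 3.

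Growth signals induce Myc, a transcription factor that raises ribosome production and metabolism and that favours entry into the cell cycle. D-type cyclins, the products of Ccnd2 and Ccnd3 in B cells, bind the kinases Cdk4 and Cdk6 and start the phosphorylation of Rb. Release of E2F factors from Rb then allows expression of E-type cyclins, from Ccne1 and Ccne2, which bind Cdk2 and complete the passage into S phase. Brakes act on both steps: the product of Cdkn2c (p18) belongs to the INK4 family and binds Cdk4 and Cdk6, whereas those of Cdkn1a (p21, a target of p53) and Cdkn1b (p27, a target of FoxO factors) bind cyclin-CDK complexes. Much of this control is exerted on the proteins, whose stability and phosphorylation RNA-seq does not measure.

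Total counts ranged from 4579793 to 69500640 per library, and the deepest, control mouse 1 in LPS-BAFF-TGFβ, held more than any other library by a wide margin. Pdap1 itself, the targeted gene, was at 93.0, 91.4 and 97.8 CPM (counts scaled to the library's normalised total) in control mice 1 to 3 and at 23.3, 27.2 and 29.9 CPM in Pdap1-deficient mice 1 to 3 in LPS-IL-4, and at 26.4, 26.0 and 23.0 CPM in the LPS-BAFF-TGFβ cultures of the latter. In LPS-IL-4 the means were 94.0 ± 3.33 CPM (SD, n = 3) in control and 26.8 ± 3.31 CPM in Pdap1-deficient LPS-IL-4 cultures, a fold of 0.283 (edgeR adjusted p = 3.52e-05). In LPS-BAFF-TGFβ the means were 126 ± 63.4 and 25.1 ± 1.89 CPM (fold 0.199, edgeR adjusted p = 0.0929). There the deepest library alone reached 199 CPM, while the other 2 control cultures were at 80.3 and 100.3 CPM, and leaving it out gave a log2 fold change of -1.85 (edgeR adjusted p = 4.9e-06). Pdap1-deficient mouse 2 stood apart in both cultures by markers of myeloid cells: the summed level of 10 such markers was 328 and 568 CPM, against 9.26 to 29.0 CPM over the 6 control libraries and 11.9 to 83.9 CPM over the other 4 Pdap1-deficient libraries, with Lyz2 at 93.95 and 278 CPM and Csf1r at 27.5 and 43.8 CPM. In each stimulation 4 of the 10 markers had enough counts for the test of genotype and none was called, with median log2 fold changes of 3.16 and 2.47. Pdap1-deficient mouse 3 had Lyz2 at 9.62 and 40.9 CPM and Csf1r at 3.38 and 6.33 CPM, against at most 5.60 and 1.89 CPM in control libraries. Fits without mouse 2 therefore still hold libraries with raised myeloid markers. Summed markers of T cells (12.1 to 47.1 CPM), NK cells (0.525 to 5.47 CPM) and erythroid cells (8.63 to 24.5 CPM) were low throughout beside those of B cells (2529 to 3706 CPM). The T cell sums overlapped between the genotypes, but the T cell marker Cd3e was highest in Pdap1-deficient mouse 2. It was at 2.61 and 1.86 CPM there, against at most 0.526 CPM in the other libraries. Summed markers of plasmablasts, 6 genes, did not overlap between the stimulations in either genotype, nor between the genotypes in LPS-IL-4. Their sum was 622 to 674 CPM in control and 747 to 892 CPM in Pdap1-deficient LPS-IL-4 cultures. In LPS-BAFF-TGFβ it was 449 to 527 and 475 to 527 CPM, with overlap of the genotypes. Of the 5 tested, 1 was called higher in Pdap1-deficient LPS-IL-4 cultures (list median 0.30 on the log2 scale), where 2.79% of all genes were. None was called in LPS-BAFF-TGFβ (0.28), where 0.455% of all genes were called higher. The difference of the genotype effects between the stimulations had a list median of -0.05, and none was called for it. From LPS-IL-4 to LPS-BAFF-TGFβ 3 were lower and 1 higher in control mice (median -1.56), beside 8.22% and 9.93% of all genes. In Pdap1-deficient mice 2 were lower (-1.58), beside 6.93% of all genes. The part of these markers in the values of the 10 genes was not tested. The study found plasmablast percentages without a significant difference between genotypes at a later time, and saw no apparent change of their signature in its RNA-seq. Xist was at 718 to 1261 CPM in control mice 1 and 3 and Pdap1-deficient mouse 1 and at 0.989 to 8.47 CPM in the other mice, so that both sexes occur in both genotypes but unequally. The 2 cultures of Pdap1-deficient mice and of control mouse 2 deviated together from their group means (r between 0.63 and 0.79 across genes), whereas those of control mice 1 and 3 did not (r = -0.22 and -0.06), and each of these 2 correlated better with the other mouse's second culture (r = 0.44 and 0.60). Comparisons of groups do not use this pairing, whereas values given within mice follow the sample titles, and for control mice 1 and 3 they rest on a pairing that these correlations leave in doubt. Each gene or share described as moving one way in 6 of 6 mice was without overlap between the stimulations in control mice, so that its direction there is the same however their cultures are paired.

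Levels of the 10 genes spanned about 2 orders of magnitude when expressed per kilobase of annotated exon (CPM per kb), the scale on which genes can be compared. Ccnd2 and Cdk4 led in control LPS-IL-4 cultures, at 107 ± 3.95 and 103 ± 1.48 CPM per kb (SD, n = 3), and their ranges overlapped. Myc followed at 51.1 ± 4.99 CPM per kb, apart from the genes above and below it. Ccne1 and Ccne2 came next, at 23.6 ± 2.42 and 22.8 ± 2.29 CPM per kb, without a difference beyond their spread. Cdkn1b, Cdk6 and Ccnd3 lay close together, between 8.66 and 9.59 CPM per kb on average, with overlapping ranges between neighbours, and below them were Cdkn2c at 6.65 ± 0.401 and Cdkn1a at 1.07 ± 0.120 CPM per kb. Over all 12 libraries, 97.1% of the tested genes had a lower mean per kilobase than Cdk4, 96.4% had a lower mean than Ccnd2 and 90.9% a lower mean than Myc, but only 15.7% a lower mean than Cdkn1a.

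In control LPS-BAFF-TGFβ cultures the order differed in its middle part. Cdk4 was highest at 101.6 ± 4.50 CPM per kb, now apart from Ccnd2 at 66.1 ± 17.0, and Myc was next at 37.0 ± 2.79. Cdk6 had moved from the seventh place to the fourth, at 26.9 ± 1.32 CPM per kb, and its range overlapped that of Ccne2, which in turn overlapped that of Cdkn1b at 21.6 ± 1.23. Ccne1, Ccnd3, Cdkn2c and Cdkn1a followed in that order, each apart from the next. Pdap1-deficient cultures showed the same 3 leading genes as control cultures in either stimulation and the same last one.

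**Figure D1:**
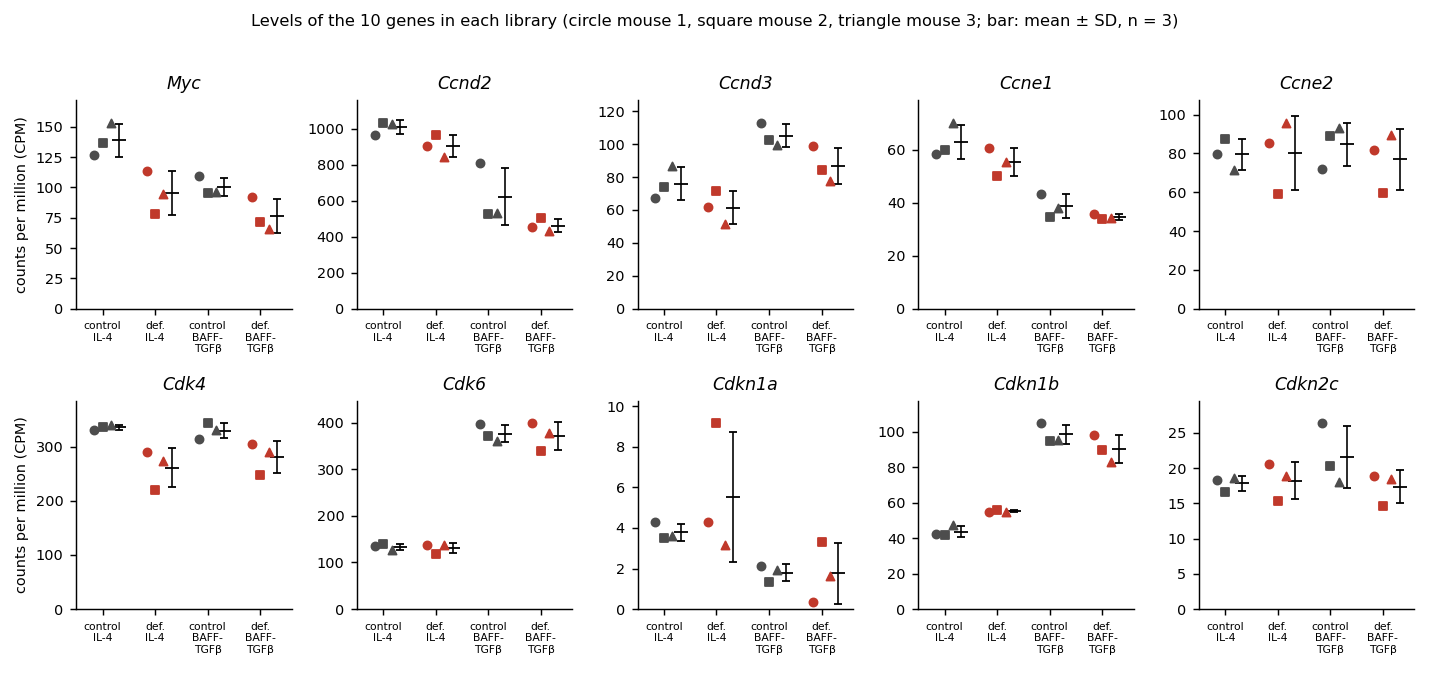
Level of each of the 10 genes in CPM (linear axes from 0, a scale of its own for each gene) in every library, by group (def., Pdap1-deficient); circles, squares and triangles are mice 1, 2 and 3 of the genotype, and bars give the mean ± SD of 3 mice. Cdk6 and Cdkn1b separate the 2 stimulations without overlap, Ccnd2 and Ccne1 do so in the other direction, and Myc and Cdk4 lie lower in the Pdap1-deficient than in the control cultures of either stimulation.

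Which of these genes depend on Pdap1 was asked first, by comparing the genotypes within each stimulation. None of the 10 passed the threshold of an adjusted p under 0.05 in either stimulation (edgeR quasi-likelihood test, Benjamini-Hochberg over all genes tested). In LPS-IL-4, where 2.79% of 15074 genes tested were called higher and 2.12% lower in Pdap1-deficient cultures, 4 of the 10 had an unadjusted p under 0.05: Myc, Cdk4 and Ccnd3 with lower fitted values and Cdkn1b with a higher one. The groups did not overlap for Myc, Ccnd2 and Cdk4, which were lower, and for Cdkn1b, which was higher; of all genes tested, 16.1% were lower and 15.5% higher without overlap. In LPS-BAFF-TGFβ, where 0.455% of 14079 genes were called higher and 0.0071% lower, 2 of the 10 (Myc and Ccnd2) had an unadjusted p under 0.05, and DESeq2 also called none of the 10. All 10 fitted values were below 0 there, and 4 genes, Myc, Ccnd2, Ccnd3 and Cdk4, were lower without overlap, against 9.08% of all genes lower and 9.55% higher without overlap. Fitted log2 changes of the 10 had a median of -0.10 in LPS-IL-4 and -0.19 in LPS-BAFF-TGFβ, beside 0.02 and 0.01 over all genes tested.

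How the kind of stimulation sets these genes was asked next, by comparing LPS-BAFF-TGFβ with LPS-IL-4 within each genotype in a fit of all 12 libraries. In control mice 3 of the 10 were called higher in LPS-BAFF-TGFβ (Cdk6, Cdkn1b and Ccnd3) and 3 lower (Ccne1, Ccnd2 and Myc), while 9.93% of 15794 genes tested were called higher and 8.22% lower. In Pdap1-deficient mice the same 3 were called higher and 2 lower (Ccnd2 and Ccne1), with 6.64% of all genes called higher and 6.93% lower. No gene among all those tested passed for a difference of the genotype effect between the stimulations (0% called by edgeR, 755 genes at an unadjusted p under 0.05; DESeq2 called 6), and of the 10 only Cdkn1b had an unadjusted p under 0.05 for it. In bulk libraries a change in the RNA of each cell and a change in the share of cells of one kind cannot be told apart.

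**Figure D2:**
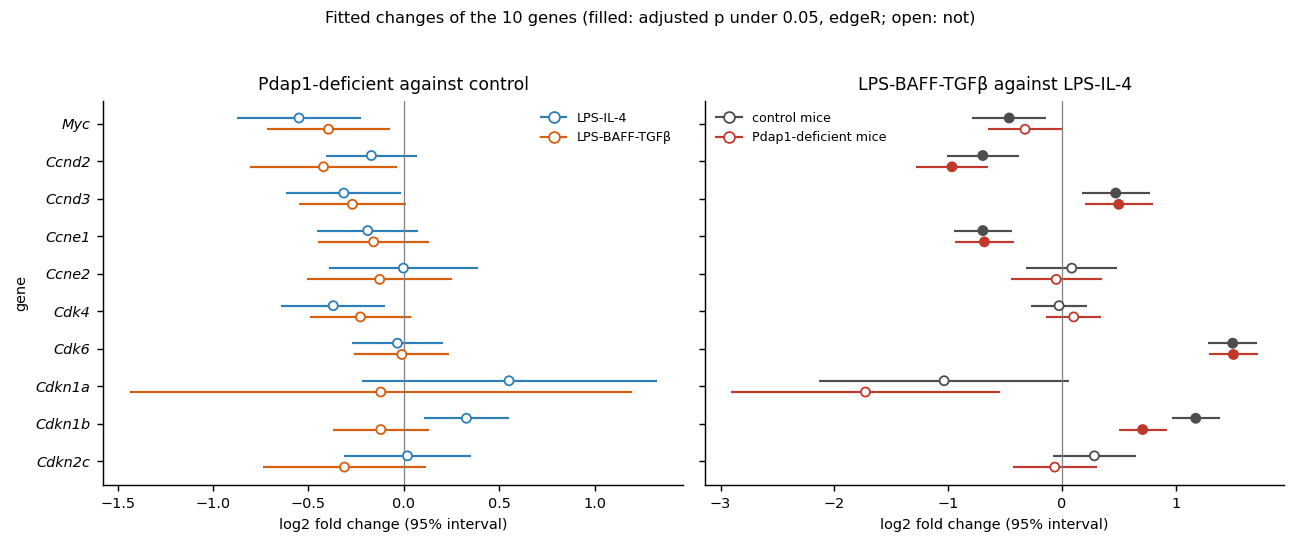
Fitted log2 fold change of each of the 10 genes with its 95% confidence interval, on the left for Pdap1-deficient against control within each stimulation (6 libraries a fit) and on the right for LPS-BAFF-TGFβ against LPS-IL-4 within each genotype (12 libraries); filled circles passed an adjusted p under 0.05. No circle on the left is filled, and on the right Cdk6 lies at 1.50 in both genotypes.

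Myc (chr15:61985391-61990374, GRCm38, plus strand) was at 127, 137 and 154 CPM in the LPS-IL-4 cultures of control mice 1 to 3 and at 114, 77.9 and 94.5 CPM in those of Pdap1-deficient mice 1 to 3. Every Pdap1-deficient culture was thus below every control culture, by a fitted fold of 0.683 (log2 fold change -0.55, 95% interval -0.87 to -0.23, edgeR adjusted p = 0.0584). With the DESeq2 Wald test, used in the study, Myc was called lower (log2 fold change -0.57, adjusted p = 0.0100) and so was Cdk4, among 5.09% of genes called lower. The lowest value was that of Pdap1-deficient mouse 2, the mouse with the highest myeloid markers. Leaving this library out moved the estimate towards 0 while reducing the spread, and Myc, Cdk4 and Ccnd3 were then called lower and Cdkn1b higher (Myc log2 fold change -0.41, edgeR adjusted p = 0.0209), where 4.49% of all genes were called lower and 5.09% higher. Without Pdap1-deficient mouse 1 instead, Myc and Cdk4 were called lower, with 5.32% of genes lower, and without any 1 of the other 4 libraries no gene of the 10 was called. The part of the myeloid markers in these values was not tested.

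In LPS-BAFF-TGFβ, Myc was at 109, 95.7 and 96.7 CPM in control and 91.9, 71.2 and 65.4 CPM in Pdap1-deficient cultures. The groups again did not overlap, but the fold of 0.761 did not pass (log2 fold change -0.39, 95% interval -0.72 to -0.07, edgeR adjusted p = 0.404). Between the stimulations, Myc was lower in LPS-BAFF-TGFβ within each of the 6 mice, at 0.63 to 0.914 of its LPS-IL-4 level. In control mice it fell by 0.46 on the log2 scale (edgeR adjusted p = 0.0467), a call that was lost without any of 7 single libraries, with adjusted p up to 0.178. In Pdap1-deficient mice the log2 fold change was -0.33 (95% interval -0.65 to 0.0024, edgeR adjusted p = 0.21), and the difference between these 2 changes was 0.14 on the log2 scale (95% interval -0.32 to 0.60).

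Of the D-type cyclins, Ccnd2 (chr6:127125162-127152193, minus strand) was at 966, 1034 and 1026 CPM in control and 904, 964 and 840 CPM in Pdap1-deficient LPS-IL-4 cultures. The lowest control culture lay only just above the highest Pdap1-deficient one, and the fitted fold was 0.889 (edgeR adjusted p = 0.364). LPS-BAFF-TGFβ cultures held 806, 528 and 531 CPM in control and 451, 503 and 432 CPM in Pdap1-deficient mice. The first of these control values belongs to the deepest library and lies far above the other control cultures, which were themselves close to the Pdap1-deficient ones; the fitted fold of 0.747 had an edgeR adjusted p of 0.443. In contrast, Ccnd2 was lower in LPS-BAFF-TGFβ than in LPS-IL-4 in all 6 mice, by a fold of 0.617 in control (log2 fold change -0.70, SE 0.15, edgeR adjusted p = 0.00427) and 0.511 in Pdap1-deficient mice (log2 fold change -0.97, SE 0.15, edgeR adjusted p = 0.000494). Without the deepest library the change in control mice was -0.93 on the log2 scale.

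Ccnd3 (chr17:47505051-47599691, plus strand), the other D-type cyclin gene of B cells, moved against Ccnd2. It was at 67.0, 74.0 and 86.9 CPM in control and 61.8, 71.3 and 51.3 CPM in Pdap1-deficient LPS-IL-4 cultures, with overlap. The LPS-BAFF-TGFβ values were 113, 103 and 99.7 CPM in control and 99.0, 84.4 and 77.4 CPM in Pdap1-deficient mice, lower in every Pdap1-deficient culture but with an edgeR adjusted p of 0.486. Ccnd3 rose from LPS-IL-4 to LPS-BAFF-TGFβ by a fold of 1.39 in control mice and 1.41 in Pdap1-deficient mice (edgeR adjusted p = 0.0299 and 0.0295) and was higher in 6 of 6 mice, by 1.15 to 1.69-fold. Each of these calls was lost without any of 4 single libraries (adjusted p up to 0.145 and 0.152). Exons of Ccnd3 overlap those of Bysl on the opposite strand, which had 14065 counts over all libraries against 15550 of Ccnd3, and as the strand setting of the counting is not stated, a share of the reads may belong to either gene.

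Of the E-type cyclins, Ccne1 (chr7:38097984-38107534, minus strand) followed the stimulation and Ccne2 (chr4:11191351-11204779, plus strand) did not pass for it. Ccne1 was at 58.3, 59.9 and 70.2 CPM in control and 60.7, 50.2 and 55.4 CPM in Pdap1-deficient LPS-IL-4 cultures, and at 43.4, 34.6 and 38.0 CPM in control and 35.6, 33.7 and 34.2 CPM in Pdap1-deficient LPS-BAFF-TGFβ cultures. Genotypes overlapped in both stimulations, whereas no LPS-BAFF-TGFβ culture reached the lowest LPS-IL-4 culture. Ccne1 fell by 0.70 on the log2 scale in control mice (fold 0.617, edgeR adjusted p = 0.000822) and by 0.68 in Pdap1-deficient mice (fold 0.623, edgeR adjusted p = 0.00143), and the interval of the difference between them was -0.35 to 0.37. The 5 genes with the pattern most like that of Ccne1 over the 12 libraries, among 8895 genes with a mean of at least 10 CPM, were Creld2 (Pearson r = 0.99), Map4k1, Sec61a1, Nsmce1 and Mapkapk3 (r of 0.97 to 0.98); these values describe libraries that share groups and carry no test.

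Ccne2 was at 79.6, 87.7 and 71.7 CPM in control and 85.3, 59.0 and 95.9 CPM in Pdap1-deficient LPS-IL-4 cultures. In LPS-BAFF-TGFβ it was at 71.8, 88.9 and 93.2 CPM in control and 81.6, 59.5 and 89.7 CPM in Pdap1-deficient cultures. All 4 groups overlapped, and the lowest value of either stimulation was that of Pdap1-deficient mouse 2. The intervals of the log2 fold change for Pdap1 loss were -0.39 to 0.39 and -0.51 to 0.25, so that a change of the size seen for Myc was not excluded in LPS-BAFF-TGFβ. Ccne2 shares exon sequence with Ints8 on the opposite strand (20766 counts against 13306), with the same limit as for Ccnd3.

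Among the kinases, Cdk4 (chr10:127063534-127067920, plus strand) was at 331, 337 and 340 CPM in control and 291, 221 and 273 CPM in Pdap1-deficient LPS-IL-4 cultures. Control cultures lay close together, and all Pdap1-deficient cultures were below them, by a fitted fold of 0.774 (log2 fold change -0.37, 95% interval -0.64 to -0.10, edgeR adjusted p = 0.103; DESeq2 adjusted p = 0.0467). LPS-BAFF-TGFβ cultures were at 315, 344 and 331 CPM in control and 305, 247 and 289 CPM in Pdap1-deficient mice, also apart, with a fitted fold of 0.854 (edgeR adjusted p = 0.524). As for Myc, mouse 2 was the lowest Pdap1-deficient mouse in LPS-IL-4, and without this library the change was -0.25 on the log2 scale (edgeR adjusted p = 0.0325). Stimulation left Cdk4 within narrow bounds: the intervals of the log2 fold change were -0.27 to 0.22 in control and -0.14 to 0.35 in Pdap1-deficient mice. Exons of Cdk4 overlap those of Tspan31 on the opposite strand, which had 4586 counts against 52509.

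The sequence just upstream of Cdk4 is shown because Myc, with its partner Max, binds the canonical E-box CACGTG, and Cdk4 and Myc were both lower in every Pdap1-deficient culture of either stimulation. The window, taken from RefSeq (GRCm38.p6, chr10:127063285-127063533, plus strand), ends at the base before the first annotated exon, and the 4 E-boxes, at 172, 118, 98 and 11 bases before the RefSeq start, are in capitals.
Cdk4 upstream: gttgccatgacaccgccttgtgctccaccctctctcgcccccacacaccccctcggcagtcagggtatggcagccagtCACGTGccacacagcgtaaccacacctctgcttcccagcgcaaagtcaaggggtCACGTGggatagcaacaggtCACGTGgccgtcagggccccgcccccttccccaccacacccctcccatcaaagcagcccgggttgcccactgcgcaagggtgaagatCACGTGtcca
RefSeq windows were found for 7 of the 10 genes. CACGTG, which reads the same on both strands, was found in the 250 bases before the start of Cdk4 and once, 220 bases before the start, in Cdk6, and in 6.02% of all 32851 windows of this length. A match describes the sequence only, and no binding was measured. Neither Myc nor Cdk4 was called for genotype by edgeR. Between the stimulations in control mice the log2 fold changes were -0.46 for Myc, -0.03 for Cdk4 and 1.50 for Cdk6. Whether Myc acts on Cdk4 in these cells was not tested.

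Cdk6 (chr5:3341485-3531008, plus strand) gave the clearest difference between the stimulations. It was at 134, 139 and 126 CPM in control and 137, 118 and 137 CPM in Pdap1-deficient LPS-IL-4 cultures. LPS-BAFF-TGFβ cultures held 397, 370 and 361 CPM in control and 399, 338 and 377 CPM in Pdap1-deficient mice. Every mouse had 2.66 to 2.95 times its LPS-IL-4 level of Cdk6 in LPS-BAFF-TGFβ, and the fitted fold was 2.82 in control (log2 fold change 1.50, SE 0.10, edgeR adjusted p = 2.11e-07) and 2.84 in Pdap1-deficient mice (log2 fold change 1.50, SE 0.10, edgeR adjusted p = 2.85e-07). The difference between the genotypes in this change was 0.01 on the log2 scale, with an interval of -0.29 to 0.31, and the genotypes overlapped within each stimulation (intervals of -0.27 to 0.20 and -0.26 to 0.24).

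Cdkn1b (chr6:134920401-134925513, plus strand), which encodes p27, was the only one of the 3 inhibitor genes among the 10 that was called between the stimulations. In LPS-IL-4 it was at 42.1, 41.5 and 47.4 CPM in control and 54.6, 56.0 and 54.9 CPM in Pdap1-deficient mice. The groups were apart, and the fitted fold of 1.26 did not pass (log2 fold change 0.33, 95% interval 0.11 to 0.55, edgeR adjusted p = 0.0841). In LPS-BAFF-TGFβ, where the values were 105, 94.9 and 95.5 CPM in control and 98.2, 89.4 and 82.8 CPM in Pdap1-deficient mice, the groups overlapped. Cdkn1b thus rose from LPS-IL-4 to LPS-BAFF-TGFβ in 6 of 6 mice, by a fold of 2.26 in control (log2 fold change 1.17, SE 0.10, edgeR adjusted p = 1.62e-06) and of 1.63 in Pdap1-deficient mice (log2 fold change 0.71, SE 0.10, edgeR adjusted p = 0.00022). Within mice the rise was 1.01 to 1.32 on the log2 scale in the 3 control mice and 0.59 to 0.85 in the 3 Pdap1-deficient mice, but the difference of -0.47 (95% interval -0.76 to -0.17, unadjusted p = 0.00478) had an edgeR adjusted p of 0.98. Its nearest patterns over the 12 libraries were those of Plxnd1, Fcrl1, Bin1, Tmem163 and Sh3kbp1 (r of 0.98 to 0.99).

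The upstream window of Cdkn1b is shown because this gene and Cdk6 moved together between the stimulations. It is the 250 bases before the first annotated exon (RefSeq, GRCm38.p6, chr6:134920151-134920400, plus strand), with its 2 CCAAT boxes, at 161 and 35 bases before the start, in capitals. The corresponding window of Cdk6 held no CCAAT box.
Cdkn1b upstream: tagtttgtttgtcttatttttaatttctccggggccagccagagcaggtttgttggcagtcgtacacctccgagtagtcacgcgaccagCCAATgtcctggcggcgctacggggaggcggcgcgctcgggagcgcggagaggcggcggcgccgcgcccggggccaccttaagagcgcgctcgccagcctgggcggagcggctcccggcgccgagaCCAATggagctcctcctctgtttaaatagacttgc
CCAAT, searched on both strands, occurs in 33.8% of all windows. Neither this window nor that of Cdk6 held the FoxO motif GTAAACA (3.17% of all windows; 1 match in Ccnd3), the STAT motif TTCNNNNGAA (5.85%) or an E2F motif (TTTCCCGC, TTTCGCGC, TTTGCCGC or TTTGGCGC, 1.86%), and the last 2 were found in no window of the 7 genes. These letters being absent from a window says nothing of the factors.

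Cdkn1a (chr17:29090976-29100727, plus strand), which encodes p21, was the scarcest of the 10, with 560 counts in all libraries together. It was at 4.28, 3.51 and 3.59 CPM in control and 4.28, 9.18 and 3.17 CPM in Pdap1-deficient LPS-IL-4 cultures. The 9.18 CPM were those of mouse 2, with its high myeloid markers, and without this library the log2 fold change of 0.55 for Pdap1 loss became -0.0077. LPS-BAFF-TGFβ cultures were at 2.11, 1.34 and 1.95 CPM in control and at 0.323, 3.30 and 1.64 CPM in Pdap1-deficient mice, the first of these resting on 2 counts. All 6 mice had less Cdkn1a in LPS-BAFF-TGFβ, and the log2 fold changes were -1.04 in control (95% interval -2.13 to 0.06, edgeR adjusted p = 0.19) and -1.73 in Pdap1-deficient mice (95% interval -2.91 to -0.55, edgeR adjusted p = 0.054). With the mouse as a replicate block Cdkn1a was called lower in both genotypes, at -1.07 and -1.70 on the log2 scale (edgeR adjusted p = 0.0487 and 0.011). Of all genes, 10.6% and 8.3% were called lower with this block. It follows the sample titles, and the call in control mice rests on the pairing left in doubt for mice 1 and 3.

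Cdkn2c (chr4:109660876-109667189, minus strand), the INK4 gene, was at 18.3, 16.6 and 18.7 CPM in control and 20.5, 15.3 and 18.8 CPM in Pdap1-deficient LPS-IL-4 cultures. It was at 26.4, 20.3 and 18.0 CPM in control and 18.9, 14.7 and 18.5 CPM in Pdap1-deficient LPS-BAFF-TGFβ cultures. The 4 groups overlapped, and no comparison of Cdkn2c had an unadjusted p under 0.05. Of the 4 comparisons of groups, the widest interval was that of Pdap1 loss in LPS-BAFF-TGFβ, -0.74 to 0.11 on the log2 scale.

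How related genes share their summed level was compared next, as a percentage of CPM per kb. Cdk4 made up 91.4%, 91.2% and 92.1% of Cdk4 plus Cdk6 in control LPS-IL-4 cultures and 77.4%, 80.0% and 79.8% in control LPS-BAFF-TGFβ cultures. Its share was lower in LPS-BAFF-TGFβ in 6 of 6 mice, with differences of -14.0 to -11.2 percentage points and a mean of -12.8. The share of Ccnd2 in Ccnd2 plus Ccnd3 was lower in 6 of 6 mice as well, with a mean difference of -9.14 points, from 92.5% ± 0.758 to 84.3% ± 2.28 in control mice. The share of Ccne1 in Ccne1 plus Ccne2 was also lower in 6 of 6 mice, with a mean difference of -11.9 points, from 50.9% ± 4.75 to 37.6% ± 5.74 in control mice. The share of Cdkn1b in Cdkn1a plus Cdkn1b was higher in 6 of 6 mice, with a mean difference of 8.21 points. This share depends on the scarce Cdkn1a, with 11 to 133 counts in control and 2 to 16 in Pdap1-deficient LPS-BAFF-TGFβ cultures. Each of these 4 within-mouse differences had p = 0.03125 in an exact two-sided sign-flip permutation test, the smallest that 6 mice allow. Over the 12 tests of shares the adjusted p was 0.0938, the smallest that this design can give, so that no share could have passed.

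Between the genotypes, the share of Cdk4 was lower in all 3 Pdap1-deficient cultures of either stimulation, with differences of the means of -2.04 points in LPS-IL-4 (90.1%, 88.9% and 89.5% in mice 1 to 3) and -2.61 points in LPS-BAFF-TGFβ (76.7%, 75.9% and 76.8%). Its p of 0.1 in an exact two-sided permutation test is the smallest that 3 against 3 can give (adjusted p = 0.2). The other 3 shares overlapped between the genotypes in both stimulations.

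**Figure D3:**
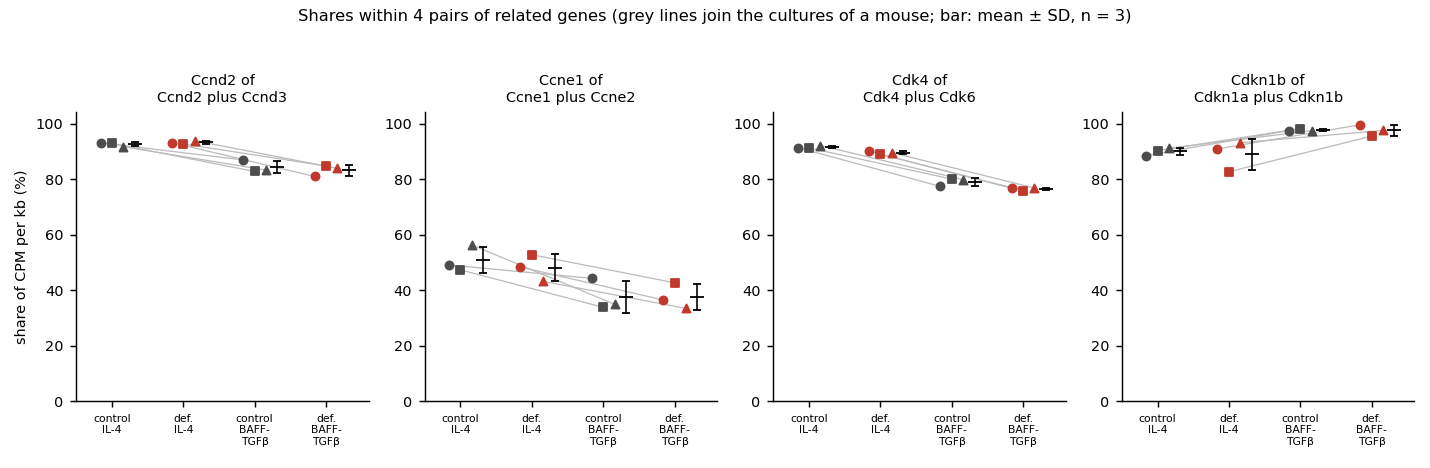
Share of the first gene in the summed CPM per kb of each pair, in percent, for every library by group (def., Pdap1-deficient); grey lines join the 2 cultures of a mouse, and bars give the mean ± SD of 3 mice. The shares of Ccnd2, Ccne1 and Cdk4 go down from LPS-IL-4 to LPS-BAFF-TGFβ in each of the 6 mice, and that of Cdkn1b goes up in each.

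The surroundings of the 10 genes were described with 9 lists that hold 141 different genes, a few of them in more than 1 list. Of the Myc target genes, which act in nucleotide synthesis, ribosome production and glycolysis, 5 of 20 tested were lower in Pdap1-deficient LPS-IL-4 cultures and none higher: Cad, which starts pyrimidine synthesis (log2 fold change -0.58), the ribosome assembly factors Bop1 (-0.66) and Ppan (-0.62), the lactate dehydrogenase Ldha (-0.58), and, named after its value was seen, the RNA polymerase I subunit Polr1b (-0.62), with edgeR adjusted p between 0.0163 and 0.0444. The median of the list was -0.45, beside 0.02 over all genes tested, of which 2.12% were called lower. The study had already reported ribosome biogenesis among the top categories of down-regulated genes in these LPS-IL-4 cultures. As the list holds genes of ribosome production and was chosen with earlier results of these data known, its counts are not independent of that result. Without Pdap1-deficient mouse 2, 15 of 21 were called lower, with a median of -0.32, beside 4.49% of all genes called lower. In LPS-BAFF-TGFβ no gene of the list was called, although all 20 fitted values were below 0 with a median of -0.40. Between the stimulations 4 of 21 fell in control mice, Polr1b, Bop1, Cad and the transferrin receptor Tfrc (log2 fold changes of -0.64 to -0.41), and none was called in Pdap1-deficient mice, where 3 were called lower without the LPS-IL-4 library of mouse 2. Of all genes, 8.22% were called lower between the stimulations in control and 6.93% in Pdap1-deficient mice. Without the LPS-IL-4 library of mouse 2, 13.4% were called in either direction in Pdap1-deficient mice. The genes with the pattern most like that of Myc itself included Cdk16, Ifrd2, Atad3a and Mtx1 (r of 0.95 to 0.96).

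Among 16 partners and antagonists of Myc, only Mxd4, which competes with Myc for Max, was higher in Pdap1-deficient LPS-IL-4 cultures (log2 fold change 0.69, edgeR adjusted p = 0.0443, 14 tested). There 2.79% of all genes were called higher. Without mouse 2 there were 1 higher and 2 lower, beside 5.09% and 4.49% of all genes. Between the stimulations several genes of this list were called. Of all genes, 18.2% were called in either direction in control and 13.6% in Pdap1-deficient mice. Mycl, a Myc paralog, rose by 2.91 on the log2 scale in control and 2.70 in Pdap1-deficient mice. Its means were only 0.343 and 0.335 CPM in LPS-IL-4, against 2.69 and 2.23 CPM in LPS-BAFF-TGFβ. Mycl was not among the genes tested for genotype in LPS-IL-4, and the size of its rise rests on the very low level there. Mxd4 rose by 0.99 in control mice. Fbxw7, whose product targets both Myc and cyclin E for degradation, fell by 0.85 in control and 0.63 in Pdap1-deficient mice. In control mice 2 of 15 were higher and 5 lower in all (4 without the deepest library), and in Pdap1-deficient mice 1 was higher and 2 lower.

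Genes that FoxO factors or quiescence maintain in lymphocytes gave calls in the other direction. In LPS-IL-4, where 2.79% of all genes were called higher and 2.12% lower, 5 of 15 were higher in Pdap1-deficient cultures and none lower. Tsc22d3, a glucocorticoid-induced leucine zipper gene (log2 fold change 1.07), the Krüppel-like factor gene Klf6 (0.97), the egress receptor S1pr1 (0.82) and the antiproliferative gene Btg2 (0.67, named after its value was seen) were among them, with edgeR adjusted p between 0.00309 and 0.0463 and a list median of 0.46. Without mouse 2, 6 of 15 were called higher, beside 5.09% of all genes, and the median of the list was 0.19. Only Tsc22d3 passed in LPS-BAFF-TGFβ (log2 fold change 1.39, edgeR adjusted p = 0.0175), where the list median of 0.12 became -0.06 without mouse 2. Between the stimulations 4 of 15 fell from LPS-IL-4 to LPS-BAFF-TGFβ in either genotype. Among the 4 were Klf3, S1pr1 and Klf2, with log2 fold changes of -1.93 to -1.47 in control mice. Of all genes, 8.22% were called lower in control and 6.93% in Pdap1-deficient mice. Only Foxo1 of the 15 rose, in control mice (0.53), where 9.93% of all genes were called higher.

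E2F target genes of the G1/S transition, which include the Mcm helicase genes, Pcna and Rrm2, were called in no comparison. All 20 were tested, 19 had a fitted value below 0 in Pdap1-deficient LPS-IL-4 cultures and 17 in LPS-BAFF-TGFβ, and the medians were small, -0.13 and -0.09. Of the Rb and E2F proteins, E2f2 was higher in Pdap1-deficient LPS-IL-4 cultures (log2 fold change 0.57, edgeR adjusted p = 0.0288), where 2.79% of all genes were called higher. Without mouse 2, 3 of 13 were called higher, beside 5.09% of all genes. Tfdp2, a partner of E2F factors, rose from LPS-IL-4 to LPS-BAFF-TGFβ by 0.95 in control and 0.69 in Pdap1-deficient mice. Rbl2, an Rb relative, rose by 0.39 in control mice, and E2f2 fell by 0.50 in Pdap1-deficient mice. These were 2 of 13 higher in control mice, and 1 higher and 1 lower in Pdap1-deficient mice. Of all genes, 9.93% were called higher in control mice, and 6.64% higher and 6.93% lower in Pdap1-deficient mice. Mybl2, a proliferation-linked transcription factor, was the only mitotic cycle marker of 13 called for genotype, lower in Pdap1-deficient LPS-IL-4 cultures (log2 fold change -0.60, edgeR adjusted p = 0.00806). There 2.12% of all genes were called lower. Without mouse 2 there were 1 higher and 1 lower, beside 5.09% and 4.49% of all genes. From LPS-IL-4 to LPS-BAFF-TGFβ, Ccnb2 and Mybl2 rose in both genotypes and Mki67, the proliferation marker, in control mice (log2 fold change 0.50). These 3 of 13 in control and 2 of 13 in Pdap1-deficient mice stand beside 9.93% and 6.64% of all genes called higher, and no result about the list is drawn from them. Without the deepest library 2 of the 13 were called in control mice, beside 18.2% of all genes in either direction.

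Of the p53 targets, to which Cdkn1a belongs by its regulation, 3 of 18 were called higher in Pdap1-deficient LPS-IL-4 cultures (2 higher and 1 lower without mouse 2) and 1 of 18 in LPS-BAFF-TGFβ. The sestrin gene Sesn2, which stress factors other than p53 also induce, was higher in both stimulations (log2 fold change 1.64 and 2.09, edgeR adjusted p = 0.000531 and 0.00155), and Trp53inp1 (0.91) and Btg2 (0.67) were higher in LPS-IL-4. The median over the 18 tested was -0.08 in LPS-IL-4 and -0.09 in LPS-BAFF-TGFβ. Of all genes, 2.79% were called higher and 2.12% lower in LPS-IL-4, and 0.455% higher in LPS-BAFF-TGFβ. Without mouse 2 in LPS-IL-4, 5.09% of all genes were called higher and 4.49% lower. Between the stimulations 2 were higher (Tnfrsf10b and Sesn1) and 5 lower in control mice, led by Pmaip1 (log2 fold change -1.53) and Plk3 (-0.87). In Pdap1-deficient mice 2 were higher and 4 lower (3 and 4 without the LPS-IL-4 library of mouse 2, 2 and 2 without its LPS-BAFF-TGFβ library). Of all genes, 9.93% were called higher and 8.22% lower in control mice, and 6.64% and 6.93% in Pdap1-deficient mice. Without these libraries of mouse 2, 13.4% and 11.7% of all genes were called in either direction. Of the remaining cyclins, kinases and inhibitors of G1 and S, 9 of 13 were tested in LPS-IL-4 and Cdc37, a chaperone of kinases such as Cdk4, was lower in Pdap1-deficient cultures (log2 fold change -0.41, edgeR adjusted p = 0.0497). Mnat1, a part of the CDK-activating kinase, was higher in LPS-BAFF-TGFβ in control mice (0.41), and Cdkn2b, another INK4 gene, fell by 2.10 in Pdap1-deficient mice, from 3.06 to 0.665 CPM. Of 12 listed factors that turn over p27 and cyclins, only 11 were tested in each comparison. None of these 11 was called for genotype (1 lower in LPS-IL-4 without mouse 2) and only Fbxw7 between the stimulations.

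**Figure D4:**
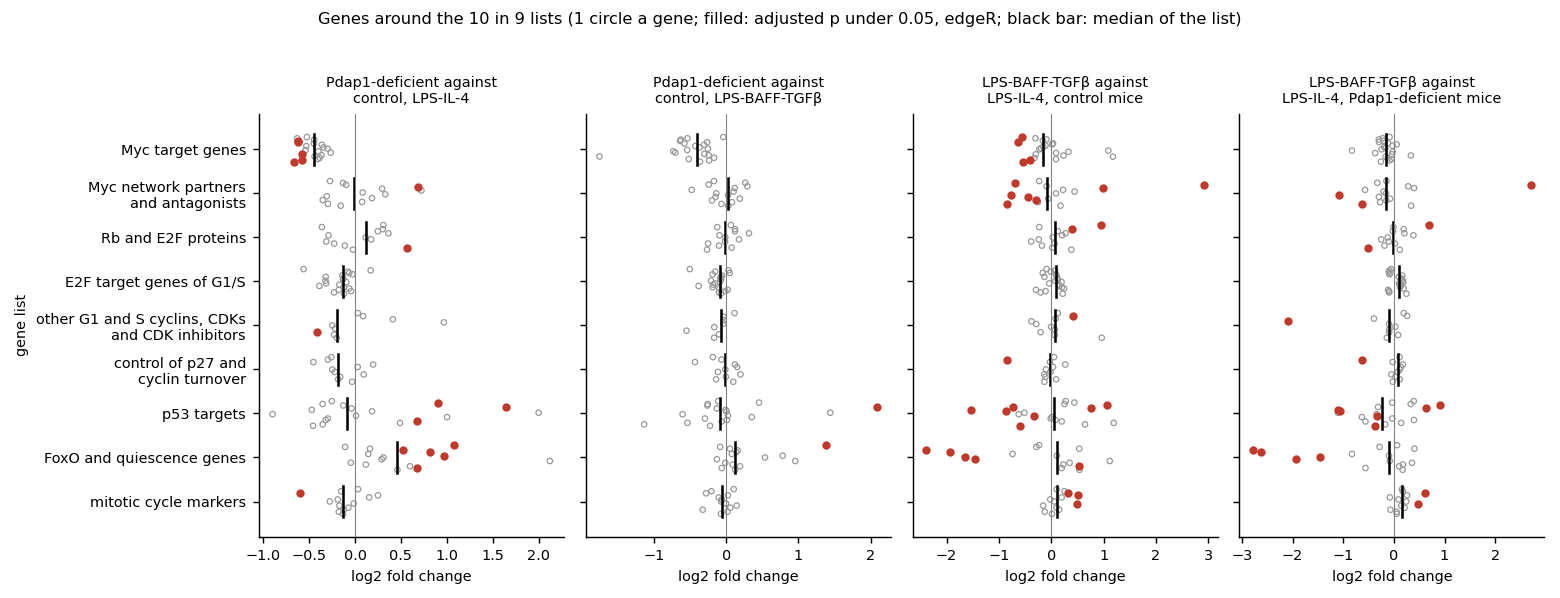
Fitted log2 fold change of each gene of 9 lists (vertical axis) in the 4 comparisons (panels, each with a horizontal axis of its own); filled red circles passed an adjusted p under 0.05 and black bars are list medians. In the first panel the Myc target genes all lie below 0, with a median of -0.45, and the FoxO and quiescence genes have a median of 0.46. The listed E2F target genes, which do not include Ccne1 and Ccne2, have no filled circle in any panel.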

How the data were processed

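Strand-specific libraries were prepared from ribosomal RNA-depleted total RNA according to the study's methods, whereas the labels name an mRNA kit. The authors trimmed reads with Trim Galore 0.6.1, aligned them to GRCm38 with STAR 2.6 and counted them per gene with HTSeq 0.9.1 in the PiGx RNA-seq pipeline, according to the submitters' processing notes and the study's methods, and deposited whole-number counts per Ensembl gene that are not normalised. The annotation release and the strand setting are not given in the sources used here. A second deposited table, of normalised values, was not used.

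The 10 genes and the gene lists were chosen with earlier results of these data known. Counts were tested with edgeR 4.0.16 (R 4.3.3): genes were kept by filterByExpr, scaled by TMM and compared with robust quasi-likelihood F tests, with Benjamini-Hochberg adjustment over all genes tested and a threshold of 0.05. Genotypes were compared within each stimulation in 6 libraries (15074 and 14079 genes), and stimulations within each genotype, and the difference of the effects, in all 12 (15794 genes). DESeq2 1.42.0, the tool of the study, was an alternative, as were edgeR with the size factors of DESeq2, all genes kept, at least 10 counts required of each library, counts without immunoglobulin genes, libraries thinned to equal depth, a replicate or mouse block, other sets of libraries in the fit, shares without division by gene length and the omission of each library in turn. Standard errors were taken as the log2 fold change divided by the square root of F. CPM use the TMM factors of all 12 libraries, and levels per kilobase use the exon union of GENCODE M21. Genes per list were named by the smallest adjusted p, up to 4 called genes, and the genes most like Myc, Ccne1 and Cdkn1b by Pearson's r of log2 CPM (prior count 2). Values of a few genes are not reported here.

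Replicates are separate mice, and libraries of a group differed by more than sampling noise. Cultures of 1 mouse were paired by the titles, and control and Pdap1-deficient mice share only a number. Tests were checked on simulated counts with 200 changed genes: of genes changed by 2 on the log2 scale, edgeR recovered 97% and 95% for genotype in LPS-IL-4 and LPS-BAFF-TGFβ, 95% for stimulation in control mice and 87% for the difference of the effects, and of those changed by 1 it recovered 75%, 60%, 74% and 33%. Of the genes left unchanged in these simulations, edgeR called 7, 19, 7 and 6, and DESeq2 called 21, 40, 25 and 20. The changed genes were drawn from those with higher counts. Changes below 1, such as that of Myc between the genotypes, were not simulated. Pathway-list counts without a library that stands apart were added after the data were seen. Shares were tested with exact permutation tests (scipy 1.17.1).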

Additional observations from a re-analysis of the deposited data

How the results depend on the processing

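Of the changes of single genes, 784 of the refitted values kept their direction and side of the threshold, 17 passed only in the alternative, 17 no longer passed and 47 changed sign. Calls of Ccnd2, Ccne1, Cdk6 and Cdkn1b between the stimulations were made in 20 of 20 alternatives in both genotypes. For Pdap1 loss in LPS-IL-4, the count of the 10 genes called went from 0 (4.92% of all genes tested called in either direction) to 2 with DESeq2 (9.37%), to 2 without a filter on low counts (5.9%) and to 1 with the replicate number as a block (4.25%), and was between 0 and 4 without single libraries (0.44% to 11.4%); the cause was not tested. With the replicate block Myc was called (log2 fold change -0.56, edgeR adjusted p = 0.0449), although control and Pdap1-deficient mice share only a number (correlations of deviations of 0.14, -0.16 and -0.41 in LPS-IL-4 and 0.21, -0.20 and 0.09 in LPS-BAFF-TGFβ). With the mouse as a block between the stimulations, 7 and 6 of the 10 were called in control and Pdap1-deficient mice, beside 21.6% and 15.8% of all genes (18.2% and 13.6% without the block). For LPS-BAFF-TGFβ genotype effects and for the difference of effects no alternative called any of the 10. The rise of Ccnd3 in Pdap1-deficient mice did not pass after thinning to the smallest library (edgeR adjusted p = 0.0693) or in a fit of the 6 libraries of the genotype (0.0571). With a minimum of 10 counts in every library Cdkn1a could be tested only for Pdap1 loss in LPS-IL-4, and after thinning it could not be tested for Pdap1 loss in LPS-BAFF-TGFβ.

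Some values changed sign. For Pdap1 loss in LPS-IL-4, Ccne2 was at 0.0022 without a filter, 0.0012 with a minimum of 10 counts, 0.00048 without immunoglobulin genes and 0.0056 with all 12 libraries in one fit, and Cdkn2c at -0.0019 with DESeq2. After thinning, Cdk6 was at 0.034 for Pdap1 loss in LPS-BAFF-TGFβ, and the differences of effects were -0.058 for Ccnd3, -0.038 for Ccne1 and -0.0081 for Cdk6. Differences of effects were -0.0035 and -0.0082 for Ccne1 and -0.0080 and -0.014 for Cdk6 without a filter and with the minimum of 10 counts.

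Without single libraries, the log2 changes for Pdap1 loss in LPS-IL-4 ranged from -0.16 to 0.19 for Ccne2, -0.087 to 0.050 for Cdk6, -0.0077 to 0.80 for Cdkn1a and -0.10 to 0.15 for Cdkn2c, and in LPS-BAFF-TGFβ from -0.25 to 0.0035 for Ccne2, -0.065 to 0.029 for Cdk6 and -0.83 to 0.38 for Cdkn1a. Those between the stimulations ranged from -0.065 to 0.0067 for Cdk4 in control mice, and in Pdap1-deficient mice from -0.23 to 0.10 for Ccne2, -0.0073 to 0.19 for Cdk4 and -0.18 to 0.040 for Cdkn2c. Differences of effects ranged from -0.024 to 0.29 for Myc, -0.087 to 0.15 for Ccnd3, -0.074 to 0.10 for Ccne1, -0.32 to 0.018 for Ccne2 and -0.061 to 0.072 for Cdk6. Differences in shares between the genotypes ranged in LPS-BAFF-TGFβ from -1.89 to 0.201 percentage points for Ccnd2, -2.71 to 3.16 for Ccne1 and -1.22 to 0.832 for Cdkn1b, and in LPS-IL-4 from -3.19 to 2.05 for Cdkn1b.

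Cdkn1a had the fewest counts of the 10 genes and the widest 95% intervals in all 5 comparisons. Antisense overlaps limit Ccnd3, Ccne2 and Cdk4 if counting did not use strand.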
